A study of Mus musculus with 51 samples.

Results

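The genes described here encode components of the milk fat globule, the lipid droplet that a lactating alveolar cell releases wrapped in its own apical plasma membrane. In the cell, perilipin 2 (Plin2) coats the cytoplasmic droplet and Cidea promotes droplet fusion and growth. Xanthine dehydrogenase (Xdh) and butyrophilin (Btn1a1) meet at the apical membrane and couple the droplet to it, so that the droplet is enveloped and shed. Mfge8, also called lactadherin, and the mucin Muc15 are carried on the outer face of the released globule. The members were Xdh, Btn1a1, Mfge8, Plin2, Muc15 and Cidea, and every probe set annotated to 1 of these symbols alone was taken. That gave 8 probe sets for the 6 genes, of 34944 single-symbol probe sets and 18192 genes on the array. Btn1a1 had 3 probe sets and each other member had 1, and all 6 genes passed the filter on low values that left 15150 genes to test.

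The samples came from mice in which Wap-Cre turned on a conditional Etv6-NTRK3 knock-in allele, the fusion found in human secretory breast carcinoma. Wap-Cre drives Cre from the promoter of the milk gene Wap, so the fusion is turned on in cells that use a milk gene promoter, and a Rosa-Stop-lacZ reporter marks those cells. Expression was measured on Affymetrix MOE430.2 arrays. The groups were lacZ+ cells sorted from transplanted tumors at passages 1 to 4 (7 arrays from 5 mice of origin), from primary tumors (8 arrays, 6 mice) and from hyperplastic glands (4 arrays, 4 mice), then unsorted transplanted tumors (4 arrays, 2 mice of origin), unsorted primary tumors (23 arrays of 22 tumors from 14 mice) and unsorted wild-type glands (5 arrays, 5 mice). Both sets of transplants grew in RAG2-/- recipients, mice without mature lymphocytes. The labels give no age, strain or reproductive state for any group, wild-type glands included. Levels are log2 intensities with values under 32 raised to 32, so that 5.00 is the lowest level possible, and each difference and its standard error come from 1 limma fit over all groups with the mouse of origin as a random block. A gene was called at an adjusted p under 0.05 (Benjamini-Hochberg over the 15150 genes).

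The labels were checked against cell markers, by the range over replicates of the mean log2 intensity of each marker list. Luminal epithelial markers (8 genes, among them Krt8, Krt18 and Epcam) lay between 9.79 and 11.80 over all 6 groups. They ran from 9.94 to 11.32 in sorted and from 10.77 to 11.80 in unsorted primary tumors. The 10 macrophage markers reached 9.97 to 11.07 in the sorted hyperplasia, against 7.90 to 9.34 in wild-type glands, and the 7 fibroblast markers 10.49 to 11.22, against 10.92 to 11.59, although the hyperplastic cells are labelled as sorted epithelium. In sorted primary tumor cells the macrophage markers ranged from 7.13 to 10.66. The unsorted samples are mixtures of cells, in which fewer cells of a type and less RNA per cell cannot be told apart. The log2 ratio of 3' to 5' Actb signal, a measure of RNA quality, ran from 0.21 to 1.19 in unsorted primary tumors, against 0.25 to 2.18 in wild-type glands, and gland replicate 4 held the highest value. The bacterial spike-in signal, a log2 level that runs higher where less sample RNA is labelled, was 12.39 and 11.31 in hyperplasia replicates 1 and 2, against 9.19 and 8.80 in replicates 3 and 4.

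In unsorted primary tumors the droplet coat gene Plin2 and the secretion gene Xdh rose over wild-type glands, and the other 4 members did not pass the test. The 2 members called were both higher, in a comparison that called 51% of all genes tested in either direction and 29.4% of all genes tested as higher, and the last share is close to the members' share. The median difference over the 6 members was 0.80, against 0.10 over all genes.

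Plin2 ran from 10.49 through a median of 11.59 to 12.72 in the 22 unsorted primary tumors, and stood at 11, 11.02, 9.60, 10.18 and 10.15 in the wild-type glands. Of the tumors, 19 lay above the highest gland and none below the lowest, so the ranges overlapped at their edges. Plin2 averaged 11.66 ± 0.63 in tumors (SD, n = 22) and 10.39 ± 0.61 in glands (n = 5), a difference of 1.26 ± 0.29 (SE, limma adjusted p = 0.000267). Plin2 is a known target of the PPAR nuclear receptors, and its promoter is shown because the gene passed the test. The 250 bases before its RefSeq start site were read on both strands for the nuclear receptor half-site AGGTCA and for the STAT5 motif TTCNNNGAA. The 92 bases of that window that lie outside the annotated gene, at chr4:86670218-86670309 on the minus strand of GRCm38.p6, hold 1 half-site match on the opposite strand, which is shown in capitals as it reads on the strand printed, 218 bases before the start site.
Plin2: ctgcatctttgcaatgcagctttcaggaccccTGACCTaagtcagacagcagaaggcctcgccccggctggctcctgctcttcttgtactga
No TTCNNNGAA lay in the Plin2 window, and the window of Mfge8 held neither motif. AGGTCA occurs in 14% and TTCNNNGAA in 7.02% of the 32851 promoter windows of that length, and a match is a description of letters only.

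Xdh ran from 8.40 through a median of 9.96 to 11.50 in the unsorted primary tumors, and stood at 8.36, 8.90, 7.66, 8.31 and 8.51 in the wild-type glands. Again 19 of the 22 tumors exceeded the highest gland and none fell below the lowest. The means were 9.97 ± 0.72 in tumors and 8.35 ± 0.45 in glands (SD, n = 22 and n = 5), a difference of 1.62 ± 0.40 (SE, 95% interval 0.83 to 2.42, limma adjusted p = 0.000604). Adipocytes are another source of droplet gene RNA in a whole gland. Of 11 adipocyte markers 4 fell and 1 rose in the tumors, where 51% of all genes were called and 21.5% were called lower. Their summed intensities were 458 to 7770 in tumors and 3057 to 10395 in glands, with Cox8b at the floor in every gland. The marker that rose, Lipe, is also among the droplet genes counted below. Endothelial markers fell in 6 of 6 and fibroblast markers in 7 of 7, while luminal markers rose in 4 of 8. Among macrophage markers 1 of 10 rose and 2 fell. With the macrophage marker mean as a covariate, an alternative chosen after seeing the data, Xdh differed by 1.55 and Plin2 by 1.27 (limma adjusted p = 0.000498 and 0.000245). The part of macrophages and of the other cell types in these differences was not tested.

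Btn1a1, the membrane protein that binds Xdh at the apical surface, ran from 7.21 through a median of 10.04 to 12.02 in unsorted primary tumors, and stood at 8.36, 9.61, 8.60, 8.69 and 8.72 in wild-type glands. The tumors spread over both sides of the glands, with 14 of 22 above the highest gland and 2 below the lowest. The difference was 1.29 ± 0.66 (SE, limma adjusted p = 0.101) and did not pass the threshold. Over 14 alternatives its limma adjusted p ran from 0.0476 to 0.183. The lowest came with 1 value per mouse, where the difference was 1.21. The other 2 Btn1a1 probe sets stayed near the floor, with medians of 5.00 and 5.12 in tumors and all 5 glands at the floor, and were not called in a fit over the 27535 probe sets that passed the filter.

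Of the outer globule proteins, Mfge8, which also bridges dying cells to phagocytes, overlapped almost wholly between the groups. It ran from 11.35 through a median of 12.32 to 13.24 in unsorted primary tumors, and stood at 12.29, 12.83, 12.20, 11.32 and 12.20 in wild-type glands. The difference of 0.17 ± 0.26 did not pass the test (SE, 95% interval -0.34 to 0.69, limma adjusted p = 0.599), and its sign turned without gland replicate 4 and under quantile normalization.

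Muc15, a heavily glycosylated membrane mucin, varied most among tumors. It ran from 5.12 through a median of 10.06 to 11.63 in unsorted primary tumors, and stood at 10.93, 9.66, 10.29, 9.88 and 9.09 in wild-type glands. The tumors lay on both sides of the glands, 3 above the highest and 6 below the lowest. The difference was -0.46 ± 0.68 (SE, limma adjusted p = 0.6). The lowest tumors, at 5.12 in mouse B459 and 5.58 in mouse C231, were near the floor, and the next was at 7.84.

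Cidea was at the floor on all 5 gland arrays and above it on 10 of 23 arrays of unsorted primary tumors, where the highest tumor reached 8.86. With all glands at the floor the fitted difference of 0.35 ± 0.55 is no bound on the change (SE, limma adjusted p = 0.619), and it did not pass the test.

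**Figure D1:**
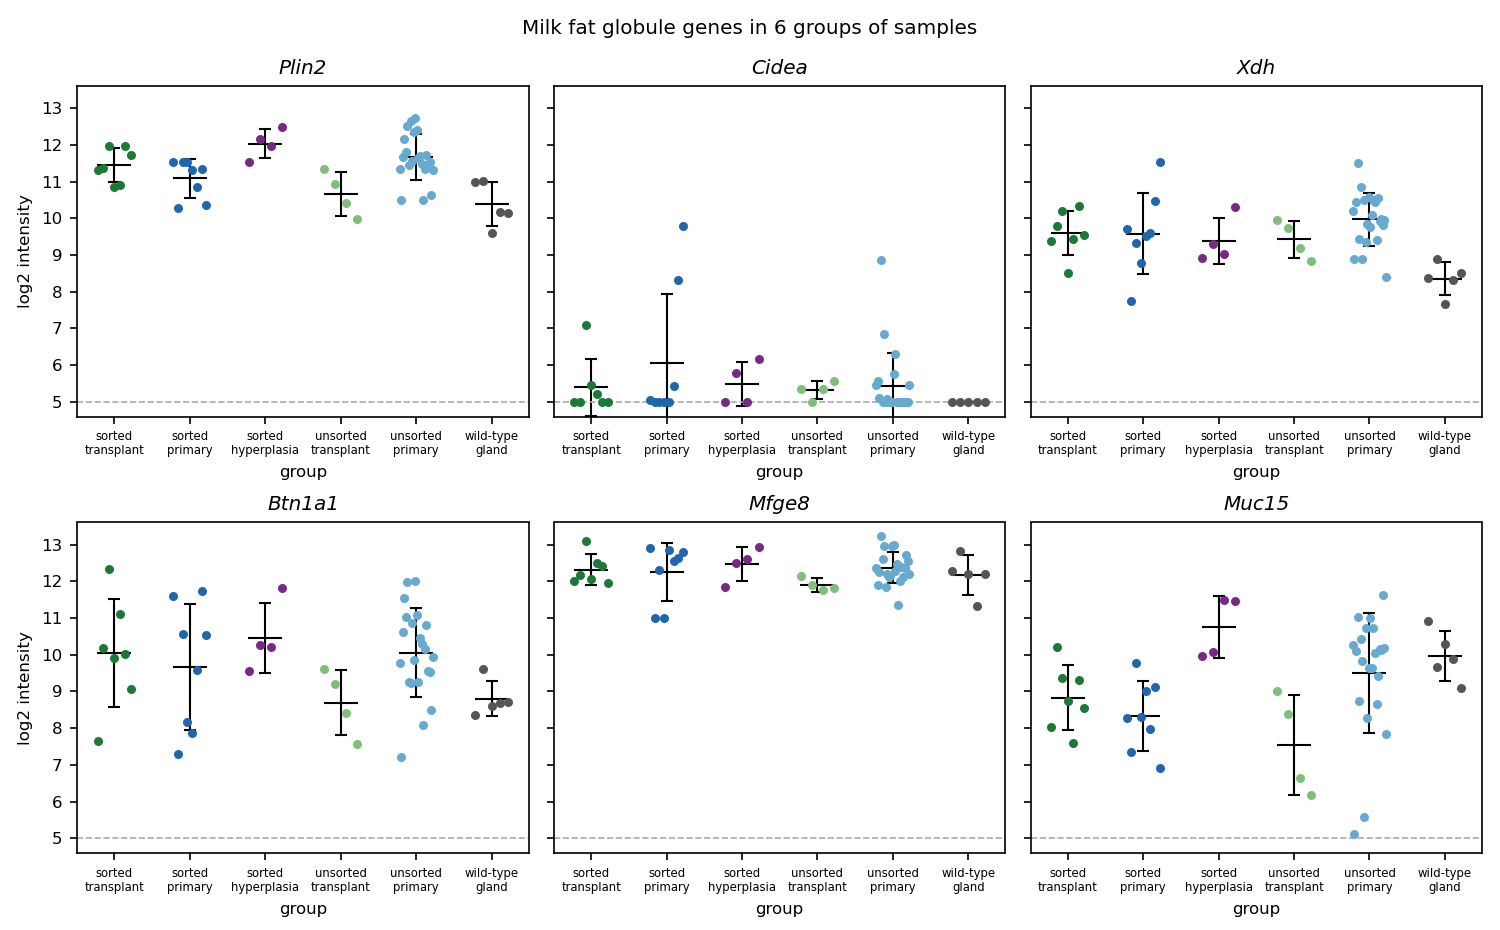
Log2 intensity (y axis) of the 6 genes in the 6 groups (x axis), with a point for each replicate and bars for the mean and SD over replicates, above the floor at 5.00 (dashed). Plin2 and Xdh lie higher in unsorted primary tumors than in wild-type glands, Muc15 is spread from 5.12 to 11.63 in the tumors, and Cidea sits at the floor in every gland.

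In sorted hyperplastic cells Plin2 rose over wild-type glands, by 1.64 ± 0.38, and no other member passed the test. That 1 member of 6 stood against 21.3% of all genes called in either direction and 11% called higher. Genotype, sorting and tissue make-up change together in this comparison and cannot be told apart.

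Plin2 stood at 11.52, 12.17, 11.96 and 12.48 in the hyperplasia samples, all above the highest wild-type gland at 11.02. The means were 12.03 ± 0.40 and 10.39 ± 0.61 (SD, n = 4 and n = 5, limma adjusted p = 0.00138). Of the macrophage markers 9 of 10 were called higher in hyperplasia than in glands, with summed intensities of 15874 to 39352 against 4123 to 12445 and none at the floor. With the macrophage marker mean as a covariate, an alternative chosen after seeing the data, the Plin2 difference was 1.54 (limma adjusted p = 0.00841). The marker means of hyperplasia and glands did not overlap (9.97 to 11.07 against 7.90 to 9.34), so this fit cannot separate marker level from group. The part of macrophages in the Plin2 difference was not tested. Without hyperplasia replicates 1 and 2 the Plin2 difference was 1.83 (limma adjusted p = 0.0142).

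Xdh stood at 8.91, 9.31, 9.02 and 10.30 in the hyperplasia samples, so that the lowest lay just above the highest gland at 8.90. The difference of 1.04 ± 0.52 did not pass the test (SE, limma adjusted p = 0.154). It passed with the macrophage marker mean as a covariate, under the limit given above, at 1.72 (limma adjusted p = 0.0232). It also passed in a fit of these groups alone (limma adjusted p = 0.0494). Btn1a1 stood at 9.55, 10.26, 10.20 and 11.81 in hyperplasia and overlapped the glands only through its lowest sample. Its difference was 1.66 ± 0.88 (limma adjusted p = 0.176, and 0.0246 in a fit of these groups alone). Mfge8, Muc15 and Cidea differed by 0.30 ± 0.34, 0.78 ± 0.90 and 0.49 ± 0.73 (SE), with overlapping ranges and no call.

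**Figure D2:**
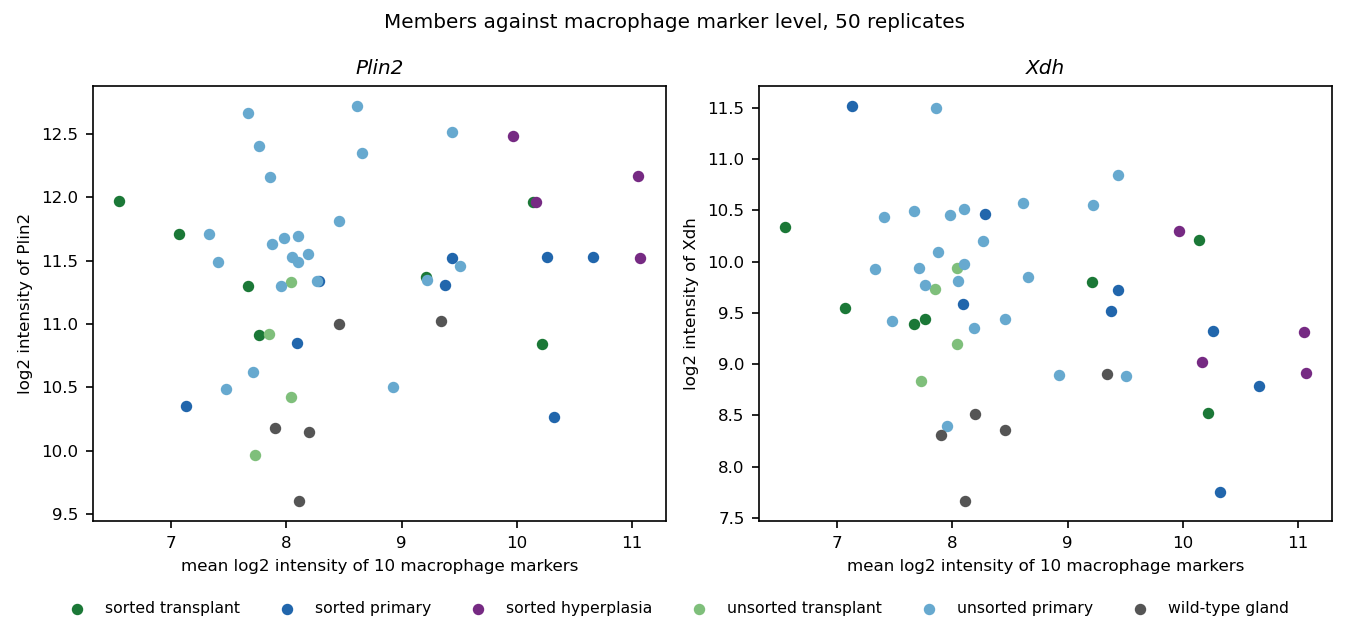
Log2 intensity of Plin2 (left) and Xdh (right) against the mean log2 intensity of 10 macrophage markers, with a point for each of 50 replicates coloured by group. The 4 hyperplasia samples lie at 9.97 to 11.07 on the marker axis, and the wild-type glands at 7.90 to 9.34 with Plin2 between 9.60 and 11.02.

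Between sorted primary tumor cells and sorted hyperplastic cells no member was called, where 3.78% of all genes were. The largest difference was in Muc15. It ran from 6.91 through a median of 8.29 to 9.78 in the 8 sorted primary tumors, and stood at 9.96, 10.07, 11.50 and 11.46 in the 4 hyperplasia samples. Every tumor lay below every hyperplasia sample. The means were 8.34 ± 0.95 in tumors and 10.75 ± 0.85 in hyperplasia (SD), a difference of -2.37 ± 0.84 that did not pass the threshold over all genes (SE, 95% interval -4.05 to -0.68, limma adjusted p = 0.102, between 0.0546 and 0.38 over 14 alternatives). Without hyperplasia replicates 1 and 2 the difference was -3.10 (limma adjusted p = 0.38).

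Plin2 ran from 10.27 to 11.53 in the sorted primary tumors, against 11.52 to 12.48 in hyperplasia, and 5 of the 8 tumors lay below the lowest hyperplasia sample. Its difference was -0.93 ± 0.35 (SE, limma adjusted p = 0.133). Macrophage markers had summed intensities of 1704 to 28725 in the tumors and 15874 to 39352 in hyperplasia, with 1 of 10 called lower, and 3 of 7 fibroblast markers were called lower. So were 3 of 5 lymphocyte, 2 of 6 endothelial, 1 of 6 basal and 1 of 11 adipocyte markers, where 2.5% of all genes were called lower. Lymphocyte markers averaged 5.54 to 6.70 in the tumors and 6.38 to 8.74 in hyperplasia (log2). The part of cell make-up in the member differences was not tested. Of the 21 partner genes of milk fat secretion and the 8 milk protein genes, 1 each was called, where 3.78% of all genes were. For the partner genes this share is close to that over all genes. Lpl, the lipoprotein lipase that delivers fatty acids for milk fat, fell by 2.91 ± 0.63 on the log2 scale (SE, limma adjusted p = 0.00342), and the milk protein Wap by 3.08 ± 0.77 (limma adjusted p = 0.0127). Btn1a1, Mfge8, Xdh and Cidea differed by -1.01 ± 0.82, -0.32 ± 0.31, 0.14 ± 0.49 and 0.49 ± 0.68, each with overlapping ranges.

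Cidea was uneven among sorted primary tumors, with an SD of 1.88, next to 1.72 for Btn1a1. In sorted transplants and hyperplasia its SDs were 0.77 and 0.59, below those of Btn1a1 at 1.48 and 0.96. Cidea was above the floor on 4 of 8 arrays of sorted primary tumors, at 5.04, 5.43, 8.31 and 9.78, and on 2 of 4 arrays of hyperplasia, at 5.79 and 6.17. Both tumors above 8 came from sorted lacZ+ cells in a group whose adipocyte markers summed to 523 to 852, with Adipoq, Car3, Ucp1 and Cox8b at the floor on all arrays. In mice Cidea is also strongly expressed in brown fat, for which Ucp1 is the defining marker. Which cells the Cidea signal came from was not tested.

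Sorted primary tumor cells were next set against unsorted primary tumors, where 25.3% of all genes and none of the 6 members were called. The members differed by between -1.13 ± 0.59 for Muc15 and 0.63 ± 0.48 for Cidea (SE). Plin2 was 11.09 ± 0.53 in sorted and 11.66 ± 0.63 in unsorted tumors (SD, n = 8 and n = 22), a difference of -0.54 ± 0.25 (SE, limma adjusted p = 0.105). Xdh differed by -0.45 ± 0.34, Btn1a1 by -0.64 ± 0.58 and Mfge8 by -0.20 ± 0.22. In the sorted tumors 5 of 8 luminal markers were called lower, and 5 of 10 macrophage and 2 of 7 fibroblast markers higher. None of the adipocyte, basal, endothelial or lymphocyte markers was called. The sorted and unsorted tumors also came from different sets of mice. Sorting, mouse and cell make-up thus change together, and their parts in these differences were not tested.

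Transplanted tumors were compared with primary tumors separately in sorted and unsorted material. In sorted cells no gene at all passed the limma test (0%, with 606 genes at an unadjusted p under 0.05), and the members differed by between -0.44 ± 0.53 for Cidea and 0.67 ± 0.64 for Btn1a1 (SE, limma adjusted p = 1 for each). In unsorted tumors 0.944% of all genes and no member passed. The median difference over the 6 members was -0.80, against -0.00 over all genes. All 6 were read on the same 4 transplants from 2 mice of origin.

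Muc15 stood at 9.01 and 8.39 in the transplants from mouse CR90 and at 6.65 and 6.17 in those from mouse CR115, all below the unsorted primary tumors' median of 10.06 but within their range. The means were 7.55 ± 1.36 in transplants and 9.51 ± 1.63 in primary tumors (SD, n = 4 and n = 22), a difference of -2.22 ± 0.78 (SE, 95% interval -3.80 to -0.65, limma adjusted p = 0.202). Plin2 stood at 11.33, 10.92, 10.42 and 9.97 in the transplants, and the lowest 2 lay below every unsorted primary tumor. Its difference was -0.97 ± 0.33 (SE, limma adjusted p = 0.174, and 0.0451 without the mouse block). Btn1a1 differed by -1.39 ± 0.76, Xdh by -0.63 ± 0.46, Mfge8 by -0.45 ± 0.29 and Cidea by -0.04 ± 0.63 (SE). All 4 transplants derive from 2 mice of origin, and macrophage markers summed to 3314 to 4342 in them, against 2345 to 14499 in unsorted primary tumors.

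Mouse CR115 has both its primary tumor and transplants among the unsorted samples. Muc15 was 6.65 and 6.17 in the transplants and 10.26 in the primary tumor of that mouse. Plin2 was 10.42 and 9.97 in the transplants and 11.34 in the primary tumor, and Btn1a1 was 8.42 and 7.58 against 9.78. Xdh was 9.20 and 8.84 against 10.20, and Mfge8 was 11.76 and 11.81 against 12.35. For these 5 genes both transplants lay below the primary tumor, whereas Cidea was 5.36 and 5.58 against 5.47. In sorted cells the passage 1 transplants of 2 mice can be set against a primary tumor of the same mouse, and they went opposite ways for 5 of the 6 members. In mouse F433 Btn1a1 was 11.12 in the transplant and 11.74 in the primary tumor it came from, Xdh 9.44 and 10.46, Mfge8 12.50 and 12.63, Plin2 10.91 and 11.34, Cidea 5.22 and 8.31, and Muc15 7.61 and 9.13. In mouse E344 Btn1a1 was 12.34 in the transplant and 10.56 in the primary tumor, Xdh 10.21 and 9.32, Mfge8 13.11 and 12.30, Plin2 11.96 and 11.53, and Cidea 7.10 and 5.00, while Muc15 was 9.38 and 9.78. Only Muc15 was lower in the transplant of both mice. With the mouse as a fixed block, an alternative chosen after seeing the data that rests on these 2 mice for sorted and on mouse CR115 for unsorted tumors, no member was called in either material. Muc15 then differed by -0.81 ± 1.01 in sorted and -3.85 ± 1.39 in unsorted transplants (SE, limma adjusted p = 1 and 0.131), against 0.12 ± 0.66 and -2.22 ± 0.78 with the mouse as a random block.

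The difference between the transplant effects, sorted minus unsorted, was tested as an interaction, which called 0.0858% of all genes and no member. It was 2.35 ± 1.04 for Muc15 (SE, limma adjusted p = 0.529), 2.06 ± 1.01 for Btn1a1 (limma adjusted p = 0.625) and 1.25 ± 0.43 for Plin2 (limma adjusted p = 0.301).

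**Figure D3:**
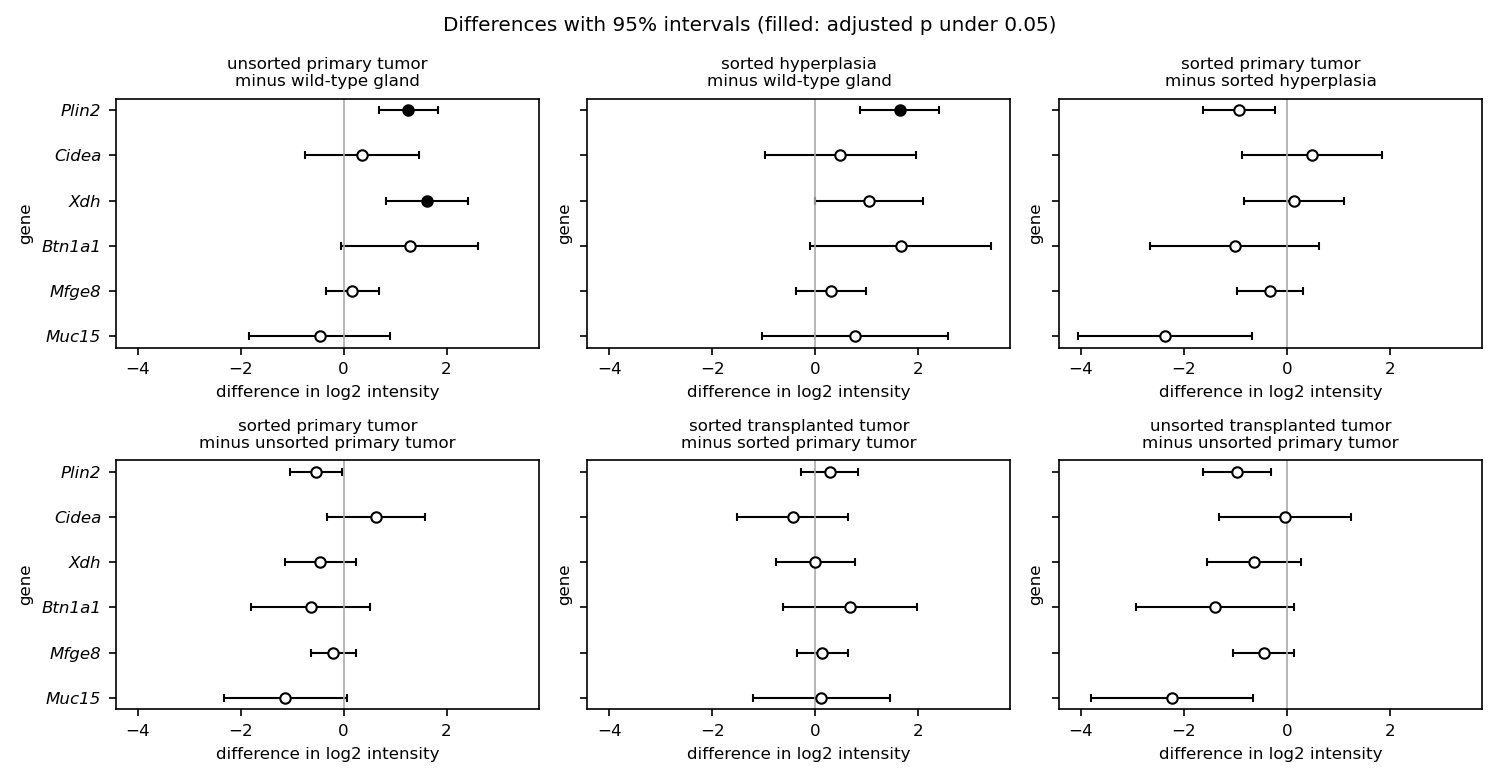
Differences in log2 intensity (x axis) with 95% intervals for the 6 genes (y axis) in 6 comparisons, the group named first minus the second, with filled points at a limma adjusted p under 0.05. Filled points are Plin2 (1.26) and Xdh (1.62) in unsorted primary tumors against glands and Plin2 (1.64) in hyperplasia against glands.

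The order of the 6 groups differed between members. Hyperplasia had the highest mean of Plin2 (12.03), Muc15 (10.75), Btn1a1 (10.46) and Mfge8 (12.47), unsorted primary tumors the highest of Xdh (9.97) and sorted primary tumors the highest of Cidea (6.07). Wild-type glands had the lowest mean of Xdh (8.35), Plin2 (10.39) and Cidea (5.00), and unsorted transplants the lowest of Muc15 (7.55), Btn1a1 (8.70) and Mfge8 (11.90). No neighbours in the order of any member passed the test. Further apart in the order, Plin2 was higher in sorted transplants than in glands by 0.99 ± 0.34 (SE, limma adjusted p = 0.0304, with 19.8% of all genes called) and higher in hyperplasia than in unsorted transplants by 1.36 ± 0.42 (limma adjusted p = 0.0125, with 27.5% called). Muc15 fell by 2.68 ± 0.96 in unsorted transplants relative to glands (limma adjusted p = 0.0216, with 40.3% called, and ranges that did not overlap) and was higher in hyperplasia than in unsorted transplants by 3.46 ± 1.00 (limma adjusted p = 0.00766).

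Tumors of the same mouse often held different levels of Muc15 and Btn1a1, while Plin2 and Mfge8 spread less. In the 6 mice with several unsorted primary tumors, Muc15 differed within a mouse by 0.76 to 4.97 (median 1.40), and its means over the 14 mice ran from 5.58 to 10.91. The widest gap was in mouse B459, whose tumors held Muc15 at 5.12 and 10.09 and Btn1a1 at 7.21 and 10.62. Btn1a1 differed within a mouse by 1.04 to 3.41, against a range of mouse means of 2.04. Plin2 differed within a mouse by 0.37 to 1.18 and Mfge8 by 0.15 to 1.39. Cidea reached 8.86 in 1 tumor of mouse C117 while the lowest of its 4 tumors was at the floor.

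**Figure D4:**
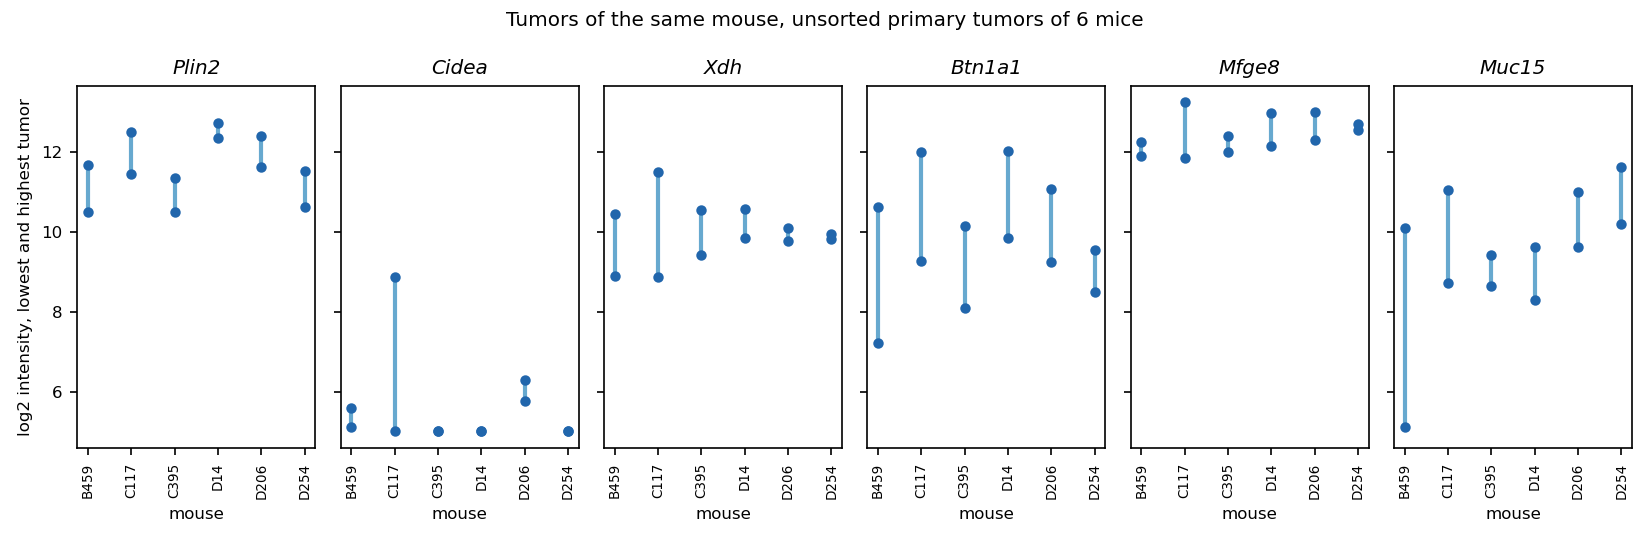
Lowest and highest log2 intensity (y axis) among the unsorted primary tumors of each of 6 mice (x axis), joined by a line, for the 6 genes. The line of Muc15 in mouse B459 spans 4.97, and the lines of Plin2 span 0.37 to 1.18.

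No pair of members passed a test of correlation across the 14 mice with unsorted primary tumors. Of 15 pairs, 13 had a positive Pearson correlation of mouse means, and none reached an adjusted p under 0.05 by Pearson's r or Spearman's rho (permutation tests, 2-sided, 100000 resamples, Benjamini-Hochberg over 15 pairs). The largest was between Btn1a1 and Plin2, with r = 0.46 (permutation p = 0.101, adjusted 0.589) and rho = 0.62 (permutation p = 0.0204, adjusted 0.306), and r fell to 0.27 without the 2 mice farthest from the median of Btn1a1. Xdh and Btn1a1, whose proteins bind each other, gave r = 0.05 (permutation p = 0.888, adjusted 0.94) and rho = 0.20 (permutation p = 0.493, adjusted 0.768), and r was 0.36 without the 2 mice farthest from the median of Xdh. Leaving out the 2 mice farthest from the median of the member named first turned the sign of r in 4 of 15 pairs. Plin2 with Muc15 turned from -0.32 to 0.44, so the negative value rests on 2 mice.

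**Figure D5:**
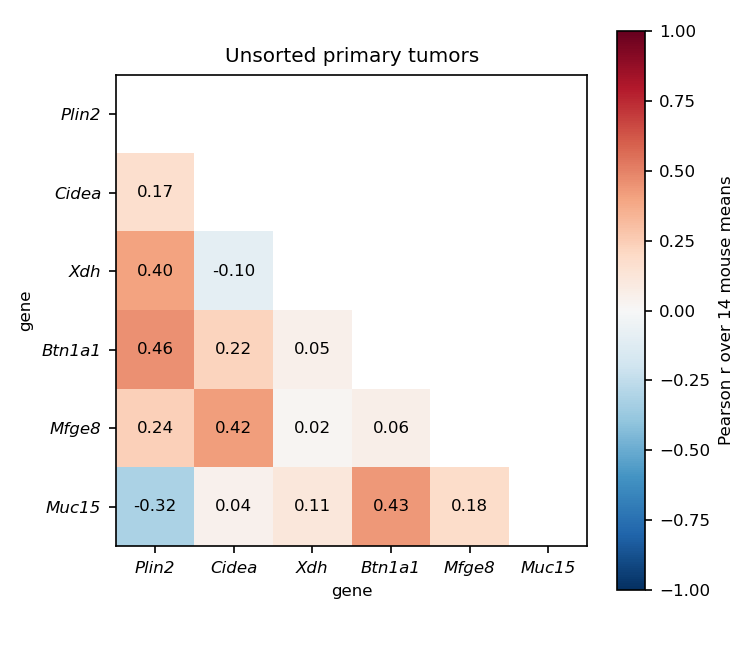
Pearson r between the 6 genes over the mean log2 intensities of 14 mice with unsorted primary tumors, from -1 (blue) to 1 (red). Values run from -0.32 for Plin2 and Muc15, which was 0.44 without 2 mice, to 0.46 for Btn1a1 and Plin2.

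The genes most like each member over the 50 replicates, by Pearson r among all genes tested and given as a description, differed from member to member. They were Muc1 (0.80), Me1 (0.76) and 1110008P14Rik (0.74) for Xdh. Btn1a1 went with Elf5 (0.78), the alveolar transcription factor, and with Lao1 (0.77) and Slc28a3 (0.76). Plin2 went with Cd81 (0.72), Slc31a2 (0.70) and the lysosomal protease gene Ctsb (0.70). Muc15 went with the fatty acid transporter gene Cd36 (0.64), with Lpl (0.62) and with Nadk (0.60). Mfge8 went with Rhoj (0.73), Abcg8 (0.73) and Igfbp5 (0.71), and Cidea with Tmie (0.80), Gpr15 (0.76) and Svip (0.69). The points share arrays, groups and mice.

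The other genes of milk fat secretion were called in both directions in unsorted primary tumors against glands. Of 21 partner genes tested, 5 rose and 6 fell, a share close to the 51% of all genes called in this comparison. Muc1, the other large mucin of the globule membrane, rose by 3.22 ± 0.42 (10.59 ± 0.68 in tumors and 7.39 ± 0.70 in glands, SD), and the folate receptor gene Folr1 by 2.46 ± 0.37, while Lpl fell by 2.13 ± 0.51 (8.41 ± 1.10 in tumors and 10.44 ± 0.40 in glands). Their limma adjusted p-values were 2.26e-08, 4.02e-07 and 0.000541.

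Of 13 genes of droplet coats, assembly and lipolysis, 7 rose and 1 fell in the tumors. Of all genes 51% were called in this comparison, 29.4% as higher. The droplet genes that rose included Abhd5, the co-activator of the triglyceride lipase Pnpla2 (2.35 ± 0.44), that lipase's inhibitor G0s2 (1.85 ± 0.69) and the coat gene Plin3 (1.48 ± 0.23). Their limma adjusted p-values were 1.83e-05, 0.0221 and 6.21e-07. Abhd5 and G0s2, an activator and an inhibitor of the same lipase, thus both rose. The 1 droplet gene that fell was Hilpda, at -1.05 ± 0.31 (limma adjusted p = 0.00458). None of the 13 was called in hyperplasia against glands, where 21.3% of all genes were. A list of 10 genes around purine breakdown, the housekeeping pathway of Xdh, also held purine salvage genes and Aox1 and Sod1, which are not purine enzymes. Of the 10, 2 rose and 3 fell in tumors, where 51% of all genes were called. Sod1 was among those that rose and Aox1 among those that fell. Ada, adenosine deaminase, rose by 1.66 ± 0.47 (limma adjusted p = 0.00265). Uox, the urate oxidase that acts after Xdh, was at 5.04 ± 0.10 in tumors and 5.84 ± 0.55 in glands (limma adjusted p = 1.18e-05). Of 14 genes of the uptake of dying cells, a process that Mfge8 serves, 1 rose and 4 fell, where 51% of all genes were called. The genes named next belong to a bridging system other than that of Mfge8. The receptor Tyro3 rose by 2.02 ± 0.32, and its relative Axl and their ligand Gas6 fell by 1.59 ± 0.36 and 1.23 ± 0.38 on the log2 scale (limma adjusted p = 9.99e-07, 0.000223 and 0.00535).

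Milk protein genes rose in 7 of 8 in unsorted primary tumors against glands, with a median difference of 3.37, and in 7 of 8 in hyperplasia against glands, with a median of 3.64. Of all genes 29.4% and 11% were called higher in these comparisons. Csn2, beta-casein, was 13.25 ± 0.53 in tumors and 10.19 ± 1.97 in glands (SD, difference 3.08 ± 0.36, limma adjusted p = 2.18e-09). Of 12 genes tested from a list of alveolar regulators, 5 rose and 2 fell in tumors, where 51% of all genes were called in either direction. Those that rose included Thrsp, a lipogenic regulator (3.35 ± 0.68, limma adjusted p = 6.02e-05), and the prolactin signalling inhibitor Socs2 (1.82 ± 0.36, limma adjusted p = 3.63e-05). Foxa1, which was on the list although it is not specific to alveolar cells, fell by 1.92 ± 0.48 (limma adjusted p = 0.000727).

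In hyperplasia against glands 1 of the 21 partner genes rose and 3 fell, a share close to the 21.3% of all genes called. The falls were led by the phosphate transporter gene Slc34a2 at -1.48 ± 0.41 and the triglyceride synthesis gene Dgat2 at -1.15 ± 0.25 (limma adjusted p = 0.00681 and 0.000672), while Gpat4, an acyltransferase of the same pathway, rose by 1.06 ± 0.35 (limma adjusted p = 0.0248). In unsorted transplants against primary tumors 1 of 21 partners was called, where 0.944% of all genes were. It was Clu, which encodes the secreted chaperone clusterin, at 9.67 ± 1.15 in transplants and 12.38 ± 0.78 in primary tumors (SD, difference -2.70 ± 0.51, limma adjusted p = 0.00223). In sorted against unsorted primary tumors 4 of 21 partners fell, where 25.3% of all genes were called in either direction, with Muc1 at -1.21 ± 0.37 (limma adjusted p = 0.012).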

How the data were processed

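Total RNA was labelled with biotin and hybridised to 51 MOE430.2 arrays, per the labels' protocols. The authors deposited 1 linear intensity per probe set and array. Their summarization and scaling were not given in the sources used here. The median intensity of an array ran from 42.9 to 57.8. The number of arrays limits the precision. Replicates are tumors, glands or cell sorts; where several came from 1 mouse, that mouse was a random block.

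The 64 control probe sets, 932 with several symbols and 9160 without a symbol were left out, as was a probe set holding 2 extreme values. Values were floored at 32 (37.4% of values lay below) and log2 transformed. The probe set with the highest mean stood for each gene, and genes above the 40th percentile on at least 4 arrays were kept. limma 3.58.1 (R 4.3.3) was fitted to 50 replicates of 6 groups (block correlation 0.358). The 2 arrays of the CR115 primary tumor (r = 0.987) were averaged as 1 tumor. The fit was tested on simulated data. The members and gene lists were chosen with earlier results of these data known. Named are the members, up to 3 called genes per list and comparison with the largest differences, Csn2, Wap, Lalba, Krt8, Krt18, Epcam, Adipoq, Fabp4, Plin1, Ucp1, Cd68 and Adgre1 where a result turns on them, and the 3 genes most like each member. Hilpda and Lipe are named in addition, as the 1 droplet gene that fell and the 1 adipocyte marker that rose in tumors. Alternatives were other floors, quantile normalization, the mean over probe sets, no filter, no mouse block, 1 value per mouse, fits of the compared groups alone and leaving out samples. A fit per probe set, one with the macrophage marker mean and one with the mouse as a fixed block were added after seeing the data. RefSeq promoters (GRCm38.p6) were matched by symbol for 2 of the members.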

Additional observations from a re-analysis of the deposited data

Results flagged for a closer look

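Within groups of 4 to 10 replicates, 30 sets of member values were compared with Dixon's critical value, which chance exceeds in about 1 of 20. Btn1a1 was 9.61 in wild-type gland replicate 2, where the nearest of the other 4 glands was 8.72 and the gap took 0.712 of the range. Cidea was 7.10 in sorted transplant replicate 3, a passage 1 transplant from mouse E344, where the nearest of the other 6 was 5.47 and the gap took 0.776 of the range.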

How the results depend on the processing

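The calls of Plin2 and Xdh in unsorted primary tumors against wild-type glands held under all 14 alternatives, with limma adjusted p between 0.000174 and 0.00401 for Plin2 and between 0.000171 and 0.005 for Xdh, and that of Plin2 in hyperplasia against glands under all 19 (0.000897 to 0.0142). Not all of these could move the 2 genes, which have 1 probe set each and lowest values of 9.60 (Plin2) and 7.66 (Xdh), both in glands. The other floors, the mean over probe sets and the missing filter left their values unchanged. Samples were left out of the glands, hyperplasia and unsorted transplants only, never of the primary tumors. Why the values below moved was not tested, beyond the smaller number of samples or genes some settings have. Between sorted primary tumors and hyperplasia the share of tested genes called was 3.78%, and 5.85% without the mouse block, 0.0864% in a fit of these groups alone, 0.554% without hyperplasia replicates 1 and 2, 2.21% with the macrophage covariate, and 1.04% to 6.24% when 1 sample was left out (1.04% without hyperplasia replicate 1, 1.85% without replicate 2, 6.24% without replicate 4). Between sorted and unsorted primary tumors it was 25.3%, and 15.7% with the macrophage covariate. Between sorted transplants and primary tumors it was 0.0132% after quantile normalization and 0.0066% with the macrophage covariate, against 0%. Between unsorted transplants and primary tumors it was 0.944%, and 2.11% with a floor of 100, 5.43% without the mouse block (with 1 member, Plin2, called), 0.271% with 1 value per mouse, 1.62% in a fit of these groups alone and 0.436% to 1.07% when 1 sample was left out (0.436% without transplant replicate 2, 0.495% without replicate 1). Between hyperplasia and glands it was 21.3%, and 7.1% without hyperplasia replicates 1 and 2; members called numbered 3 in a fit of these groups alone and 2 with the macrophage covariate, against 1. For the difference of transplant effects it was 0.0858%, and 0.0462% with a floor of 16, 0.421% with a floor of 100, 0.139% after quantile normalization, 0.172% with the mean of probe sets, 0.0362% without the filter, 1.36% without the mouse block, 0.033% with 1 value per mouse and 0.0462% to 0.416% when 1 sample was left out (0.0462% without unsorted transplant replicate 1, 0.416% without replicate 3, 0.145% without replicate 4).

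Differences that turned their sign were uncalled on both sides. Xdh in sorted primary tumors against hyperplasia became -0.02 without hyperplasia replicate 1 (up to 0.44, without replicate 4), -0.14 without replicates 1 and 2 and -0.27 with the macrophage covariate. Mfge8 in unsorted tumors against glands became -0.25 after quantile normalization and -0.04 without gland replicate 4 (up to 0.34, without replicate 2), and in hyperplasia against glands -0.27 after quantile normalization. Xdh in sorted transplants became -0.00 with a floor of 100, -0.06 after quantile normalization and -0.25 with the macrophage covariate. Cidea in unsorted transplants became 0.29 with a floor of 16, 0.05 with 1 value per mouse and 0.05 without transplant replicate 2 (down to -0.12, without replicate 4). Among correlations, Muc15 with Cidea became -0.21 (floor of 16), Xdh with Cidea 0.12 (floor of 100), and Xdh with Mfge8 -0.15 and Mfge8 with Plin2 -0.06 (quantile normalization). Without the 2 farthest mice Plin2 with Muc15 became 0.44, Xdh with Mfge8 -0.23, Xdh with Muc15 -0.13 and Muc15 with Cidea -0.06. The titles tie some transplants to primary tumors of the same mouse, and with the mouse as a fixed block (15 residual degrees of freedom) the share of genes called was 0.0199% for sorted and 3.38% for unsorted transplants and 0.159% for their difference, with no member called. Muc15 and Cidea in sorted transplants became -0.81 and 0.22, and the difference of transplant effects in Cidea 0.22. By replicate number, as opposed to mouse, no paired analysis was possible because the labels' replicate numbers mark only the repeat arrays of 1 tumor. Small groups limit what could be called, and Cidea at the floor has no measurable level.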
